A study of Mus musculus with 8 samples.

Results

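The 9 genes described here encode enzymes that extend, sulfate and cap keratan sulfate chains and the N-glycans that carry them. They were taken by symbol from the 23420 named genes of an RNA sequencing comparison of the mouse limbus and cornea: the N-acetylglucosaminyltransferases B3gnt2, B3gnt3 and B3gnt7, the sulfotransferase Chst5, the fucosyltransferase Fut8 and the sialyltransferases St3gal1, St3gal2, St3gal3 and St3gal4. All 9 were present in the table and had reads in both tissues. Tissue came from wild type C57BL/6J mice that were 8 weeks old. Limbal rims, the ring of tissue between cornea and sclera, were separated under a microscope from corneal buttons, the cornea inside that ring, and the rims and the buttons of 16 eyeballs were each pooled before RNA extraction, so variation between animals cannot be seen. No treatment is given for either group. The labels number 4 samples per tissue, but the deposited values were built from 1 library per tissue, so no difference below has a replicate check and no p-value is given.

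Keratan sulfate is a sulfated chain of alternating galactose and N-acetylglucosamine. In the cornea it is attached to asparagine of small leucine-rich proteins such as lumican and keratocan, and it is known for its part in the even spacing of collagen fibrils on which corneal transparency depends. Beta-1,3-N-acetylglucosaminyltransferases and beta-1,4-galactosyltransferases add the sugars in turn, sulfotransferases place sulfate on carbon 6 of either sugar, Fut8 adds fucose to the innermost N-acetylglucosamine of the N-glycan, and sialyltransferases can end a chain with sialic acid. Most of these enzymes also act on other glycans, so an mRNA level is not a measure of keratan sulfate.

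RefSeq promoter entries (GRCm38.p6) were found for 7 of the 9 genes. The 250 bases before the RefSeq start are shown for 4 of them. These are the 2 sialyltransferase genes with an entry that were higher in the limbus and Chst5, the sulfotransferase of the group. The last is B3gnt2, whose tissues did not differ beyond counting error. All 4 are on the minus strand and are written 5′ to 3′, and capitals mark the GC box GGGCGG on either strand. The St3gal4 window is chr9:35116865-35117114, the St3gal3 window chr4:118134947-118135196, the Chst5 window chr8:111910200-111910449 and the B3gnt2 window chr11:22859736-22859985. In the GENCODE gene spans given below, St3gal4, Chst5 and B3gnt2 start further upstream than in RefSeq. Their windows therefore lie wholly or almost wholly inside those spans.
St3gal4: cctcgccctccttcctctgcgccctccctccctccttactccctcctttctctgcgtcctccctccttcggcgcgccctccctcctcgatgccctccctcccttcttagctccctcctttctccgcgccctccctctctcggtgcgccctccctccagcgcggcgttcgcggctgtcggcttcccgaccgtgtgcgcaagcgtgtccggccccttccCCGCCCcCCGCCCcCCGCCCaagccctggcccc
St3gal3: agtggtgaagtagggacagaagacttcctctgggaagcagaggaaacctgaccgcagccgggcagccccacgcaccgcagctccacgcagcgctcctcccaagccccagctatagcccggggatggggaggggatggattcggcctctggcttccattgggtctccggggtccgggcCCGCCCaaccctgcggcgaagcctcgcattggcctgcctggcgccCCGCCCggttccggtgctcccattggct
Chst5: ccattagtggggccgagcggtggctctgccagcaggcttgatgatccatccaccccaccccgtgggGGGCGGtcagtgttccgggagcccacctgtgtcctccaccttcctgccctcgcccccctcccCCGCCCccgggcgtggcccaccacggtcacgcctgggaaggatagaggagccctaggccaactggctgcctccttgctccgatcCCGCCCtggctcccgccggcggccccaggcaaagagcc
B3gnt2: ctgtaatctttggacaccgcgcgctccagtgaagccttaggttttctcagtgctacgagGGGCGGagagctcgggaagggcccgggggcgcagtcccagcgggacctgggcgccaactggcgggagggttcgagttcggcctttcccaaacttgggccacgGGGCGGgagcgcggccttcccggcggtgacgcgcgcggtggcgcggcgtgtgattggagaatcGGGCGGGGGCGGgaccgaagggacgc
The box occurred 3 times before St3gal4, 2 times before St3gal3, 3 times before Chst5 and 4 times before B3gnt2. It was present in 10756 of 32851 RefSeq promoter windows of this length (32.7%). The windows were 72.8% G and C for St3gal4, 68.4% for St3gal3, 71.6% for Chst5 and 70.0% for B3gnt2, against a median of 52.4% over all windows. The St3gal4 gene is overlapped by 4930581F22Rik, a noncoding transcript of the opposite strand. Among these 4 windows, B3gnt2 had the most boxes, and its base content lay within the range of the others. A match of letters is not evidence of binding. The entries not shown were more varied. B3gnt7 had 2 boxes (61.6% G and C) and B3gnt3 had 1 (60.0%). Of the Fut8 windows, the one at 74.8% had 1 box and those at 59.2%, 37.6% and 36.4% had 0.

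Reads on named genes came to 26109440 for the cornea and 21177231 for the limbus. Reads were divided by size factors inferred from the deposited means, 1.03 for the cornea and 0.967 for the limbus, to give normalized reads. Each log2 ratio is limbus over cornea with an exact Clopper-Pearson 95% confidence interval. Such intervals reflect counting error alone, since each tissue has 1 library. No molecular identifiers are named for these libraries, and amplified reads are not independent molecules. The intervals may therefore be too narrow even for counting error. A gene was called where its tissues were at least 1.5-fold apart. Of the 13862 genes that exceeded 3 reads in each library, 21.7% met this call with the limbus higher and 21.5% with the cornea higher. Scaling to total reads in place of size factors turned these shares into 27.4% and 14.3%. Counting error was exceeded by 33.2% with the limbus higher and by 40.6% with the cornea higher.

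St3gal1, St3gal3 and St3gal4 were called higher in the limbus and none of the 9 genes was called higher in the cornea. Counting error was exceeded by 6 of the 9 genes, all with the higher value in the limbus, and B3gnt2, B3gnt3 and St3gal2 lay within it. Across the 9 genes the median log2 ratio was 0.49, against -0.05 over the 13862 genes. The summed normalized reads of all 9 genes were 3067 in the cornea and 5294 in the limbus (log2 ratio 0.79, 95% interval 0.72 to 0.85). The 4 sialyltransferases of the group made up most of that gap, with 1211 normalized reads in the corneal and 3180 in the limbal library, while the 3 N-acetylglucosaminyltransferases had 1289 and 1313. In bulk tissue, fewer cells of a type and less RNA per cell cannot be told apart.

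**Figure D1:**
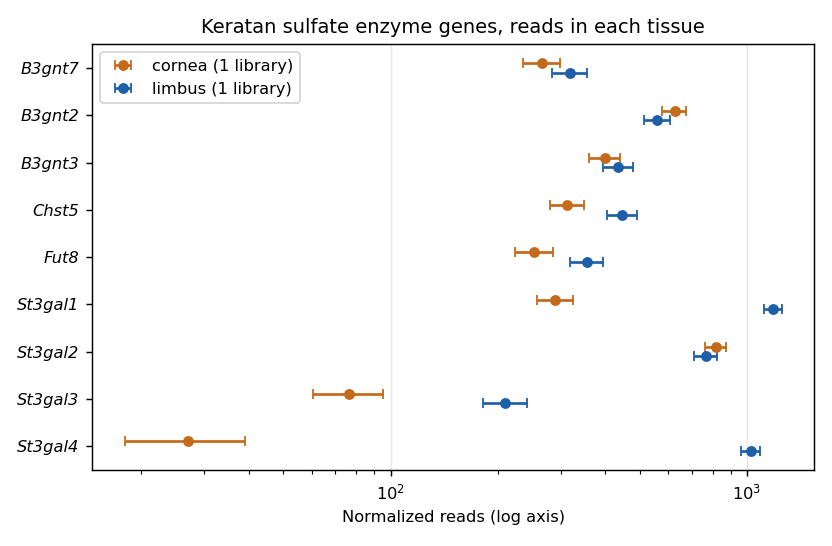
Normalized reads of the 9 genes in the cornea and the limbus, 1 library each, on a log axis, with bars for the exact 95% Poisson interval. The tissues lie far apart for St3gal4 (27.1 and 1024), St3gal1 (289 and 1180) and St3gal3 (76.4 and 210), and close together for the 3 B3gnt genes and St3gal2.

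B3gnt7, B3gnt2 and B3gnt3 add N-acetylglucosamine to a terminal galactose and so lengthen poly-N-acetyllactosamine chains, and B3gnt7 is the enzyme most closely tied to keratan sulfate. In GRCm38, B3gnt7 lies on chromosome 1 from 86302832 to 86307305 on the plus strand, B3gnt2 on chromosome 11 from 22759738 to 22860961 on the minus strand, and B3gnt3 on chromosome 8 from 71690756 to 71701789 on the minus strand. B3gnt7 had 274 corneal and 308 limbal reads, or 265 and 318 normalized reads (log2 ratio 0.26, 95% interval 0.02 to 0.50). The limbus was higher, by a margin whose lower limit was close to 0. B3gnt2, which acts broadly on N-glycans, had 647 and 541 reads, or 626 and 559 normalized reads (log2 ratio -0.16, 95% interval -0.33 to 0.0046). B3gnt3, which acts on mucin-type O-glycans, had 412 and 421 reads, or 399 and 435 normalized reads (log2 ratio 0.13, 95% interval -0.07 to 0.33). Neither B3gnt2 nor B3gnt3 differed between the tissues beyond counting error, although B3gnt3 did after scaling to total reads (0.33, 95% interval 0.13 to 0.53). Together the 3 genes gave a log2 ratio of 0.03 (95% interval -0.09 to 0.14).

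The log2 ratios of 2 genes can be set against each other without any choice of scaling, because the scaling drops out of their difference. The log2 ratio of B3gnt7 was 0.43 above that of B3gnt2 (95% interval 0.14 to 0.71), a difference beyond counting error between these 2 libraries. That of B3gnt3 was 0.29 above that of B3gnt2 (95% interval 0.03 to 0.55), and B3gnt7 and B3gnt3 differed by 0.14 (95% interval -0.17 to 0.44). Per kilobase of exon, B3gnt7 accounted for 18.6% of the summed level of the 3 genes in the corneal and 21.8% in the limbal library, and B3gnt2 for 43.5% and 37.9%. Other genes overlap these 3, among them Gm28048, a protein-coding gene on the strand of B3gnt2. The libraries were stranded, but whether the counting used strand is not given in the sources used here.

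Chst5 encodes the sulfotransferase that places sulfate on carbon 6 of N-acetylglucosamine in corneal keratan sulfate. It lies on chromosome 8 from 111889136 to 111910447 on the minus strand, and no other gene overlaps it. Chst5 had 324 corneal and 432 limbal reads, or 313 and 447 normalized reads (log2 ratio 0.51, 95% interval 0.30 to 0.72). The limbus was higher beyond counting error, at a 1.42-fold ratio that fell short of the 1.5-fold call. Fut8, the only enzyme that adds the core fucose of N-glycans, lies on chromosome 12 from 77238125 to 77476338 on the plus strand. It had 261 and 343 reads, or 252 and 355 normalized reads (log2 ratio 0.49, 95% interval 0.25 to 0.73). It too was higher in the limbus without reaching 1.5-fold, and the difference in log2 ratio, Fut8 minus Chst5, was -0.02 (95% interval -0.33 to 0.29). That of Chst5 was 0.25 above that of B3gnt7, with an interval that included 0 (95% interval -0.07 to 0.56).

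St3gal1, St3gal2, St3gal3 and St3gal4 transfer sialic acid to carbon 3 of a terminal galactose. St3gal1 and St3gal2 prefer the galactose of mucin-type O-glycans and, for St3gal2, also gangliosides. St3gal3 and St3gal4 can act on N-acetyllactosamine, the unit from which keratan sulfate is built, though not on it alone. Their ratios were unequal, from no difference beyond counting error for St3gal2 to the largest ratio of the 9 genes for St3gal4.

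St3gal4 lies on chromosome 9 from 35046576 to 35119268 on the minus strand. It had 28 corneal and 991 limbal reads, or 27.1 and 1024 normalized reads. The limbal level was 37.8-fold higher (95% interval 26.0 to 57.2), and the log2 ratio of 5.24 (95% interval 4.70 to 5.84) rests on a low corneal count. Of the 13862 genes, 57 had a ratio at least this large, St3gal4 included, which placed it at percentile 99.6. Its overlapping transcript 4930581F22Rik, on the opposite strand, had 4 and 36 reads.

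St3gal1 lies on chromosome 15 from 67102875 to 67176830 on the minus strand, and no other gene overlaps it. It had 299 corneal and 1141 limbal reads, or 289 and 1180 normalized reads, which was 4.08-fold higher in the limbus (95% interval 3.59 to 4.65). Its log2 ratio of 2.03 (95% interval 1.84 to 2.22) stood at percentile 92.0 of all genes. St3gal3, on chromosome 4 from 117932154 to 118134914 on the minus strand, had 79 and 203 reads, or 76.4 and 210 normalized reads. The limbus was 2.75-fold higher (95% interval 2.11 to 3.61), with a log2 ratio of 1.46 (95% interval 1.08 to 1.85). The antisense transcript 9530034E10Rik overlaps St3gal3.

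St3gal2 lies on chromosome 8 from 110919922 to 110972480 on the plus strand. It had 846 corneal and 741 limbal reads, or 818 and 766 normalized reads (log2 ratio -0.10, 95% interval -0.24 to 0.05). It was the 1 sialyltransferase of the 4 whose tissues could not be separated at this depth. The differences in log2 ratio from St3gal2 were 5.34 for St3gal4 (95% interval 4.78 to 5.90), 2.12 for St3gal1 (95% interval 1.89 to 2.36) and 1.55 for St3gal3 (95% interval 1.15 to 1.95). Among the other 3, the log2 ratio of St3gal4 was 3.21 above that of St3gal1 (95% interval 2.64 to 3.79), and that of St3gal1 was 0.57 above that of St3gal3 (95% interval 0.15 to 0.99). All of these intervals lie above 0, so the differences exceed counting error in these 2 libraries under any scaling.

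**Figure D2:**
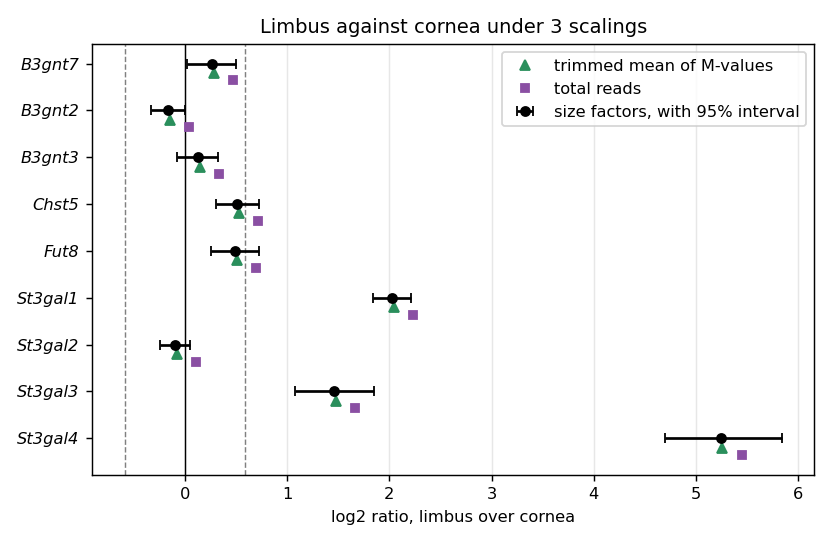
The log2 ratio of limbus over cornea for each gene with its exact 95% interval (black), and the same ratio after a trimmed mean of M-values (triangles) and after scaling to total reads (squares), with dashed lines at 1.5-fold. St3gal4, St3gal1 and St3gal3 lie past the right line under all 3 scalings, and Chst5 and Fut8 pass it after scaling to total reads, under which B3gnt2 (0.04) and St3gal2 (0.11) change sign without being called.

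Levels of different genes were compared as normalized reads per kilobase of the exons of each gene. In the cornea St3gal2 was at the top with 162 per kilobase, followed by B3gnt2 with 149.7, Chst5 with 144 and B3gnt3 with 130.5, and neighbours among these 4 did not differ beyond counting error. B3gnt7 followed at 64.1, St3gal1 at 42.2, Fut8 at 32.0 and St3gal3 at 27.6, of which Fut8 and St3gal3 did not differ beyond counting error. St3gal4 was at the bottom with 9.27 per kilobase, 2.98-fold below St3gal3 (95% interval 1.91 to 4.76). When the longest transcript set the length, Fut8 at 71.0 stood above St3gal1 at 50.5, and B3gnt2 at 205 above St3gal2 at 186.

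In the limbus the order was different, with St3gal4 at the top at 350.5 per kilobase, 1.71-fold above Chst5 at 205 (95% interval 1.53 to 1.92). St3gal1 came next at 172, then St3gal2 at 152, B3gnt3 at 142 and B3gnt2 at 134, and St3gal2, B3gnt3 and B3gnt2 did not differ, each from the next, beyond counting error. B3gnt7 at 77.0 and St3gal3 at 75.8 could not be separated, and Fut8 was the lowest at 44.9. Below St3gal4, this order depended on the length used. When the longest transcript set the length, St3gal1 at 206 stood just above Chst5 at 205. B3gnt2 at 183 then stood above St3gal2 at 174 and B3gnt3 at 142. St3gal3 was then the lowest at 82.3 and Fut8 stood at 99.8. As a share of the summed level per kilobase of St3gal1, St3gal2, St3gal3 and St3gal4 alone, St3gal2 accounted for 67.2% in the corneal and 20.2% in the limbal library. St3gal4 accounted for 3.84% and 46.7%, St3gal1 for 17.5% and 22.9%, and St3gal3 for 11.4% and 10.1%. Among these 4 genes the highest level was that of St3gal2 in the cornea and St3gal4 in the limbus, also when the longest transcript set the length (66.6% for St3gal2 in the cornea, 51.4% for St3gal4 in the limbus).

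**Figure D3:**
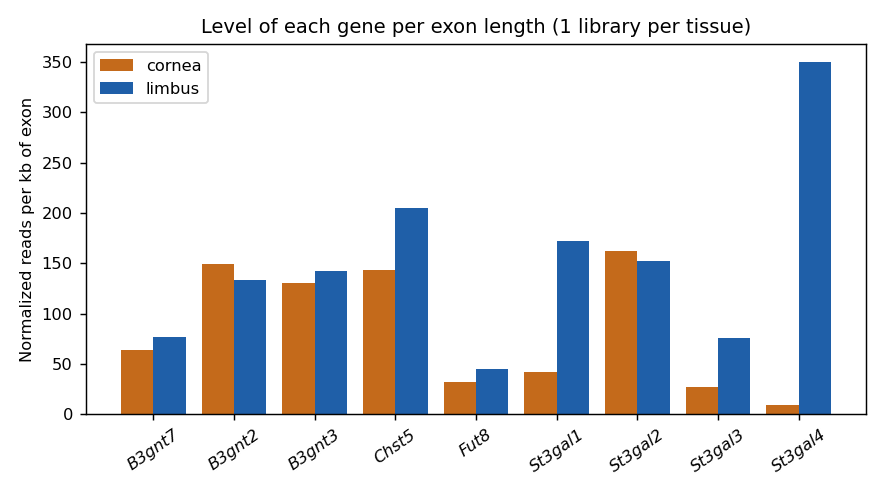
Normalized reads per kilobase of exon for the 9 genes, cornea beside limbus, 1 library each, with the axis from 0. St3gal4 goes from the lowest bar in the cornea (9.27) to the highest in the limbus (350.5), while St3gal2 is at 162 and 152.

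**Figure D4:**
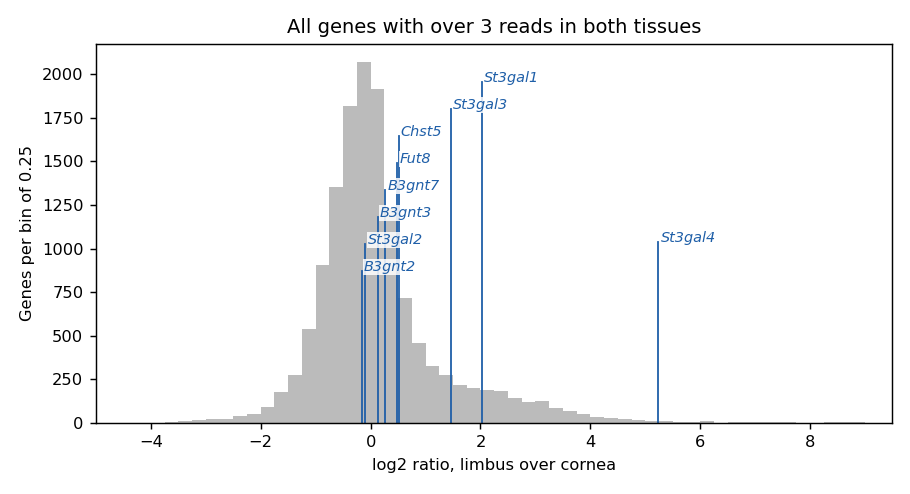
Number of genes per bin of the log2 ratio (limbus over cornea) for the 13862 genes that exceeded 3 reads in each library, with lines at the 9 enzyme genes (line heights only keep the names apart). St3gal4 stands in the right tail at 5.24, and the 3 B3gnt genes and St3gal2 lie in the central peak between -0.16 and 0.26.

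Beyond the 9 genes, 76 other genes of the pathway were listed by step, of which 74 were in the table and 64 exceeded 3 reads in each library. Of these 64, 22 were called higher in the limbus (34.4%, against 21.7% of all genes) and 10 higher in the cornea (15.6%, against 21.5%). After scaling to total reads they were 28 and 8 (43.8% and 12.5%, against 27.4% and 14.3% of all genes). Counting error was exceeded by 32 with the limbus higher and by 18 with the cornea higher, and the other 14 lay within it. Over all genes, 33.2% exceeded it with the limbus higher and 40.6% with the cornea higher. Their median log2 ratio was 0.23, against -0.05 over all genes and 0.49 for the 9 enzymes.

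Of the galactosyltransferases that alternate with the B3gnt enzymes, 3 of 4 were called higher in the limbus, with log2 ratios of 1.43 for B4galt2, 1.05 for B4galt3 and 1.005 for B4galt4. The same call was met by 21.7% of all genes. B4galt1, at 0.07, held most of the reads of the group, and the summed normalized reads of the 4 were 3404 for the cornea and 4283 for the limbus. The other sulfotransferases were sparse beside Chst5. Chst1, which sulfates the galactose of keratan sulfate, had 1 corneal and 51 limbal reads, a limbal excess of at least 5.88-fold. Chst2, a paralog of Chst5, had a log2 ratio of 0.50, and the difference between Chst5 and Chst2 was 0.01 with a wide interval (95% interval -0.52 to 0.53). Chst7 had 9 and 38 reads (log2 ratio 2.17, 95% interval 1.10 to 3.41), and Chst4 was at 0 in both libraries.

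Of the 4 other sialyltransferases that act on galactose, the 2 that exceeded 3 reads in each library were called higher in the cornea, the side opposite to St3gal1, St3gal3 and St3gal4. Of all genes, 21.5% were called higher in the cornea. St3gal5, which makes the ganglioside GM3, had 708 corneal and 188 limbal reads (log2 ratio -1.82, 95% interval -2.06 to -1.58). St6gal1, which adds sialic acid to carbon 6 of galactose on N-glycans, had 1211 and 657 reads (log2 ratio -0.79, 95% interval -0.93 to -0.65). After scaling to total reads St6gal1 stood at -0.58, just short of the call. Per kilobase, St3gal5 had 262 corneal and 74.2 limbal normalized reads and St6gal1 had 238 and 138, so both stood above St3gal2 in the cornea and below St3gal4 in the limbus. St3gal6, added once its values were known, had 0 corneal and 61 limbal reads, a limbal excess of at least 7.09-fold, and St6gal2 was at 0 in both.

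Among other genes whose symbols begin with B3gnt, B3gnt9 with a log2 ratio of 1.64 and B3gnt8 with 0.88 were called higher in the limbus. B3gntl1, with -0.94, was called higher in the cornea. B3gnt4, B3gnt5 and B3gnt6 had 3 reads or fewer in at least 1 library. Of the other fucosyltransferases, Fut9 at 2.57 (32 and 178 reads) and Fut10 at 2.39 (22 and 108 reads) were called higher in the limbus, and Fut11, Fut1 and Fut2 did not differ beyond counting error. Of 8 genes that trim and branch N-glycans, 4 were called higher in the limbus and none higher in the cornea (all genes: 21.7% and 21.5%). These were Mgat3 (1.08), which adds the bisecting N-acetylglucosamine, Mgat4a (1.02) and Mgat4b (0.88), which start a branch, and the mannosidase gene Man2a2 (0.70). In the mucin-type O-glycan list, C1galt1, the enzyme of the core galactose, was called higher in the cornea with a log2 ratio of -1.45 (95% interval -1.89 to -1.03).

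Donor synthesis genes were called on both sides. Of the 17 in the table, 3 were called higher in the limbus and 4 higher in the cornea, with a median log2 ratio of -0.01. These counts are near the shares over all genes, 21.7% and 21.5%. Papss2, which makes the sulfate donor PAPS, had 2623 corneal and 751 limbal reads (log2 ratio -1.71, 95% interval -1.83 to -1.59), while its paralog Papss1 was at -0.01. Fpgt at -1.02 and Ugp2 at -0.95 were also called higher in the cornea, and Gmds, of GDP-fucose synthesis, higher in the limbus at 0.86. Among the Golgi transporters, Slc35a3, which carries UDP-N-acetylglucosamine, was called higher in the cornea at -0.96 (95% interval -1.10 to -0.83). Slc35c1, which carries GDP-fucose, was called higher in the limbus at 0.65 (95% interval 0.50 to 0.79). The sialic acid donor transporter Slc35a1 was at -0.18, the galactose donor transporter Slc35a2 at 0.18, the PAPS transporters Slc35b2 and Slc35b3 at 0.36 and -0.33, and the sulfate transporter Slc26a2 at -0.06, none of them called.

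The core proteins that can carry keratan sulfate lay on both sides. Kera was called higher in the cornea at a log2 ratio of -2.99, Lum did not differ beyond counting error at -0.01, and Fmod at 4.03, Omd at 3.94, Prelp at 2.94 and Ogn at 1.12 were called higher in the limbus. The log2 ratios of the chain enzymes Chst5 and B3gnt7 lay between those of the core proteins. The log2 ratio of Chst5 was 0.52 above that of Lum (95% interval 0.31 to 0.74) and 3.51 above that of Kera (95% interval 3.28 to 3.73). That of B3gnt7 was 0.28 above Lum (95% interval 0.04 to 0.52) and 3.26 above Kera (95% interval 3.01 to 3.51). Against the other 4 core proteins both were lower, with differences for Chst5 from -0.61 (95% interval -0.85 to -0.37) for Ogn to -3.52 (95% interval -3.75 to -3.29) for Fmod. For B3gnt7 they ran from -0.85 (95% interval -1.12 to -0.59) for Ogn to -3.77 (95% interval -4.02 to -3.51) for Fmod. Of 6 genes of keratan sulfate degradation, Hexa at 0.87 and Neu1, the sialidase, at 0.84 were called higher in the limbus and none higher in the cornea. The shares called over all genes were 21.7% and 21.5%.

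**Figure D5:**
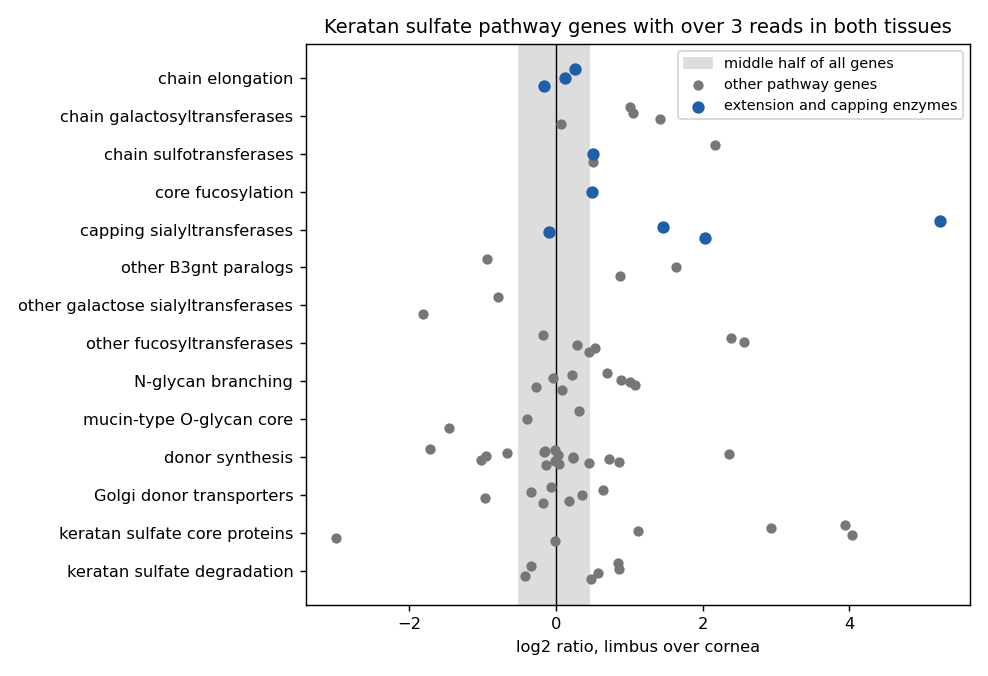
The log2 ratio of limbus over cornea for each pathway gene that exceeded 3 reads in each library, by step, with the 9 extension and capping enzymes in blue, other genes in grey and the band from the lower to the upper quartile of all genes (-0.51 to 0.46). The steps that reach beyond 2 on the limbal side with more than 1 gene are the capping sialyltransferases, the other fucosyltransferases and the core proteins.

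Markers of other cells moved with the tissue. All 4 corneal epithelium markers favoured the cornea beyond counting error, at a summed level of 2326438 normalized reads for the cornea against 964381 for the limbus, and all 7 limbal and conjunctival epithelium markers were higher in the limbus (88888 and 648227). The summed levels in cornea and limbus were 27.1 and 8548 for 4 skeletal muscle genes, all higher in the limbus. They were 175 and 1766 for 4 vessel endothelium genes, 54.2 and 1278 for 3 Schwann cell genes, 272 and 1369 for 4 melanocyte genes and 490 and 1225 for 4 leukocyte genes, and every gene of these lists that exceeded 3 reads in each library was higher in the limbus. Of the goblet cell markers, Agr2 was higher in the limbus, Spdef did not differ beyond counting error, Muc5ac had 1 read in each library and Tff1 was at 0. The fibroblast list was split, with Col1a1, Col3a1 and Pi16 higher in the limbus and Pdgfra and Dpt higher in the cornea, and the keratocyte list was split as well, with Kera and Aldh3a1 higher in the cornea and Ptgds higher in the limbus. Of 3 corneal endothelium genes, Slc4a11 and Col8a2 were higher in the limbus and Slc4a4 did not differ beyond counting error.

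These lists bear on every gene above that was higher in the limbus, and their part in the values of St3gal1, St3gal3 and St3gal4 was not tested. The log2 ratio of St3gal4 was 1.92 above that of Krt15 (95% interval 1.38 to 2.46) and 1.72 above that of Krt4 (95% interval 1.17 to 2.26), keratins of the limbal and conjunctival epithelium, and below those of the 4 skeletal muscle genes, which ran from 7.38 to 8.71.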

How the data were processed

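Per the labels, total RNA was extracted from corneal buttons and limbal rims, and stranded libraries were made from 100 ng of RNA. Reads were trimmed and mapped to GRCm38 (mm10) in CLC Genomics Workbench, with a trimmed mean of M-values named for normalization. The authors deposited 1 table of 40904 rows (17484 without a gene name were left out), with a mean normalized signal per gene. The authors deposited beside it the log2 fold change of cornea over limbus, its standard error and p-values, none of which is reported here. The methods give general tests for the study as a whole, without saying which one produced the p-values of this table. The sign was read from genes whose side the study states, and corneal keratin falls on the corneal side.

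The table has no values per sample. Each mean is the average of 2 libraries divided by their size factors, so it moves in whole reads. Where several read pairs gave a mean, the pair closest to the deposited log2 fold change and standard error under a shrinkage model was taken. The size factors were those under which the means resolved into whole reads. Reads and size factors are therefore derived values. Each candidate pair was fitted to the log2 fold change, so its miss is the gap in the standard error alone. For the 9 genes the chosen pair missed by at most 2.24e-05 and the next by at least 0.00283. On data simulated under the same shrinkage model, 14640 of 14643 pairs were found. Such data cannot show whether the deposited values follow that model. The planned count test needed values per sample and was not run.

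Libraries with 3 reads or fewer were set to 3 and gave a lower bound. Differences between log2 ratios of 2 genes have Wald intervals and were chosen after seeing the data. The genes named here are the 9 enzymes, the galactosyltransferases, sulfotransferases, transporters and core proteins in full, and from other lists at most 4 genes at least 1.5-fold apart with a mean of at least 50. Papss1, St3gal6 and genes named as not called in those lists were added after their values were seen. The enzymes and lists were chosen with earlier results of these data known. Positions and exon lengths are from GENCODE vM21. Python 3.11.15, numpy 2.4.6, scipy 1.17.1 and pandas 2.3.3 were used.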

Additional observations from a re-analysis of the deposited data

How the results depend on the processing

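The libraries were rescaled, a pseudocount of 1 normalized read was added, the call was raised to 2-fold, genes were filtered on a mean of at least 50 or not at all, and Wilson intervals replaced exact ones. Under these, the count of genes called higher in the limbus changed by more than 1.5 times only after scaling to total reads, which raised every log2 ratio by 0.21 and the median of all genes to 0.15. It then came to 5, since Chst5 (0.72) and Fut8 (0.70) passed 1.5-fold. The same scaling turned B3gnt2 to 0.04 and St3gal2 to 0.11, neither called nor beyond counting error. A trimmed mean of M-values raised every log2 ratio by 0.02. With the longest transcript as the length, 5 of the 9 genes kept their place in the order of levels in the cornea and 2 in the limbus. No paired analysis was possible because the table has no value for a numbered sample, and leaving out a replicate was not run for the same reason. With 28 corneal reads, St3gal4 has the least certain fold.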
